A study of Rattus norvegicus with 88 samples.

Results

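Orbitofrontal cortex libraries of Heterogeneous Stock (HS) rats were divided into a high and a low group by the RNA level of 4 genes, Drd1, Drd2, Adora2a and Ppp1r1b. The members were selected on measured values: each gene's log2 value was converted to a z-score within its rat batch, the 4 z-scores of a library were averaged into a score, and libraries above the median score of their batch were called high and the rest low. Of the 80 libraries with a column in the table, 79 belonged to rat batches 2, 3, 4 and 6 and received a group, 39 high and 40 low. The labels describe 88 samples in all. Batch 2 gave 7 high and 8 low libraries, batch 3 gave 11 and 11, batch 4 gave 13 and 13, and batch 6 gave 8 and 8.

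Both groups came from the same outbred population, had received no behavioural or drug treatment and were housed in groups. The study sampled this cortical region from both hemispheres of each rat by hand dissection of frozen sections, and sequenced polyA RNA to relate expression to genotype. It made no comparison between high and low libraries, and each library was 1 rat. The study's methods give mean ages for males and females that lie close together, and these ages are not tied to single libraries.

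Dopamine receptor D1 (Drd1) and dopamine receptor D2 (Drd2) are G protein-coupled receptors that raise and lower cyclic AMP, respectively. Adora2a encodes an adenosine receptor that raises cyclic AMP, and Ppp1r1b encodes DARPP-32, a protein phosphatase inhibitor regulated by dopamine signalling. All 4 are abundant in projection neurons of the striatum, where Drd1 marks the direct pathway and Drd2 and Adora2a the indirect pathway, and cortical neurons also express several of them. In bulk tissue, fewer cells of a type and less RNA per cell cannot be told apart.

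Scores reached from -1.69 up to 0.91 among batch 2 libraries and from -0.86 up to 1.75 among those of batch 3. For batch 4 the limits were -1.06 and 1.20, and for batch 6 they were -0.78 and 0.76. The libraries nearest the division differed little. In batch 4 the highest low library scored -0.11 and the lowest high library -0.09. The corresponding pairs were 0.22 and 0.42 in batch 2, -0.33 and -0.18 in batch 3, and 0.0045 and 0.19 in batch 6. A median places the division by rank, so these values do not show whether the libraries form clusters. In batch 2 the low library at 0.22 lay nearer to the high group than to the next low library, at -0.31.

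**Figure D1:**
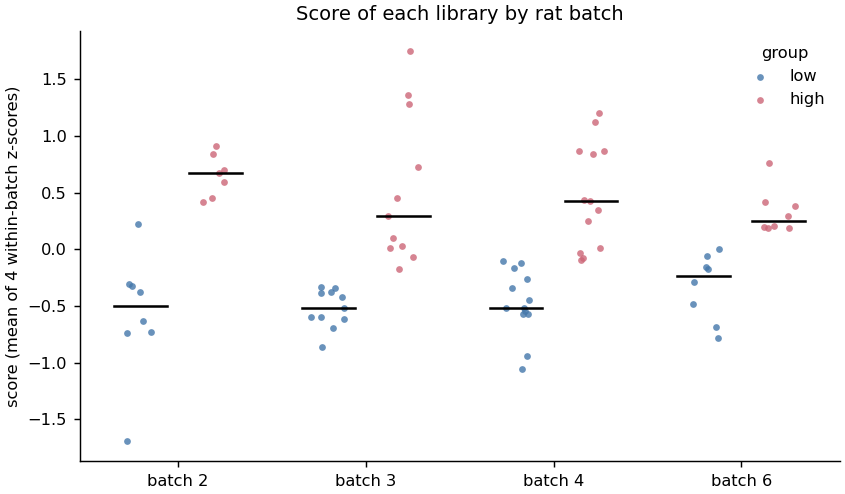
Score of each library (mean of 4 within-batch z-scores, no unit) for low and high libraries in rat batches 2, 3, 4 and 6. Each point is 1 library and each bar a group median. The score set the groups, so they cannot overlap within a batch, and the lowest library, at -1.69, lies in batch 2.

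The 4 genes that set the groups differed in level and in how far they contributed. Values are normalized counts, meaning read counts after the authors' upper quartile adjustment, and they are described without a test. Drd1 ranged from 47 to 165 with a median of 76.0 in low libraries and from 57 to 283 with a median of 94 in high libraries. Drd2 ranged from 18 to 125 with a median of 41.5 in low libraries and from 30 to 158 with a median of 72 in high libraries. Both receptors overlapped between the groups when batches were pooled.

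Adora2a ranged from 39 to 83 with a median of 63.0 in low libraries and from 45 to 128 with a median of 67 in high libraries. Ppp1r1b was the most abundant in normalized counts, from 1061 to 2720 with a median of 1743 in low libraries and from 1203 to 3536 with a median of 1920 in high libraries. These counts were not divided by gene length, so they do not rank the genes by transcript number. The overlap was again wide for both genes.

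Drd1 was the only score gene with separate groups in at least 1 batch, which was batch 2, where low libraries had 47 to 165 normalized counts and high libraries 171 to 283. In batch 6 the Drd1 ranges were 52 to 101 in low and 63 to 96 in high libraries. Taking batches 2, 3, 4 and 6 in turn, the mean log2 difference of Drd1 was 0.94, 0.30, 0.36 and 0.14. For Drd2 the same differences were 0.93, 0.84, 0.62 and 0.43. Both differences were largest in batch 2 and smallest in batch 6, and the Drd2 ranges of the groups overlapped in each batch.

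**Figure D2:**
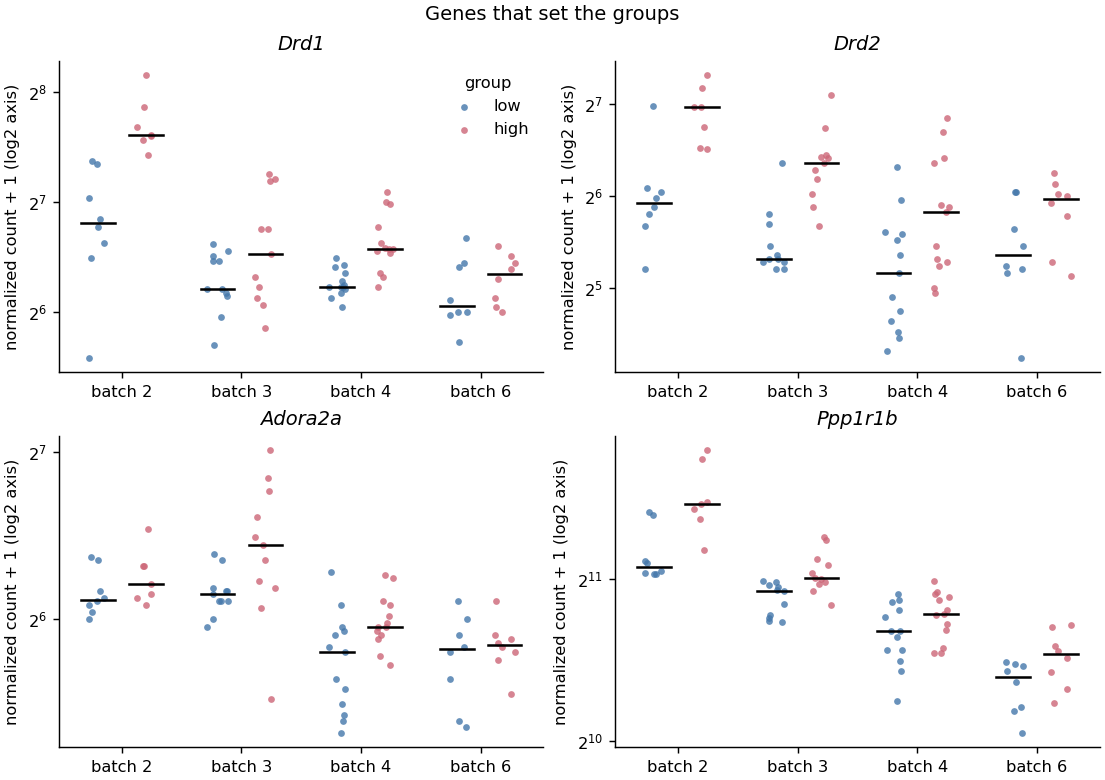
Normalized count + 1 (log2 axis) of the 4 score genes in low and high libraries of each rat batch. Points are libraries and bars are group medians. Drd1 in batch 2 shows separate groups (47 to 165 against 171 to 283), while Adora2a in batch 6 has nearly equal medians of 55.5 and 56.5.

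The score genes followed each other only in part. Over the 79 libraries, the within-batch z-scores of Drd1 and Drd2 had a Pearson r of 0.49 and a Spearman rho of 0.45. The other 5 pairs had r between 0.08 and 0.21. These correlations are descriptions across libraries that share batches and a normalization. Drd1 and Adora2a had r = 0.15, 0.26, 0.30 and -0.60 across batches 2, 3, 4 and 6. Drd1 and Drd2 had r = 0.83, 0.56, 0.62 and -0.12 in the same batches. In batch 6 these pairs therefore did not move together as in the other batches. The r of Ppp1r1b also varied between batches. Taking batches 2, 3, 4 and 6 in turn, it was 0.80, 0.33, 0.07 and -0.25 with Drd1. With Drd2 it was 0.68, 0.26, -0.22 and 0.11.

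Each score gene was next tested on groups that it had not set, by dividing the libraries on the other 3 genes. This asks whether the 4 genes vary together from library to library. Between 69 and 71 of the 79 libraries kept their group. Drd1 ranged from 47 to 165 (median 84) in the low and from 52 to 283 (median 94) in the high libraries of that division, and was higher in the high group by 0.31 on the log2 scale (95% interval 0.14 to 0.48; limma adjusted p = 0.0263). The means differed in this direction in 3 of 4 batches. Among all genes on those groups, 2.85% were called higher.

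Drd2 ranged from 18 to 125 (median 46) in the low and from 29 to 158 (median 64) in the high libraries set by the other 3 genes. Its log2 difference was 0.52 (95% interval 0.27 to 0.76; limma adjusted p = 0.0203), with the same direction in 4 of 4 batches. The background of genes called higher was 2.04%. Drd1 and Drd2 thus each rose with a score that still held the other receptor, although their groups overlapped. This pair had the highest correlation of the 6 (r = 0.49). The 2 calls therefore do not show that either receptor rose with Adora2a or Ppp1r1b. With the column run as a covariate, explained below, Drd1 and Drd2 lost the call (adjusted p = 0.0574 and 0.0672, with differences of 0.31 and 0.48).

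Adora2a and Ppp1r1b did not pass the threshold after adjustment over all genes fitted. Before adjustment the limma p was 0.111 for Adora2a and 0.0043 for Ppp1r1b. Adora2a ranged from 39 to 92 (median 64) in low and from 41 to 128 (median 67) in high libraries. It differed by 0.10 (95% interval -0.02 to 0.21; limma adjusted p = 0.393), with higher means in 2 of 4 batches, where 2.48% of all genes were called higher. Ppp1r1b differed by 0.12 (95% interval 0.04 to 0.19; limma adjusted p = 0.128) with higher means in 4 of 4 batches, and 0.987% of all genes were called higher. Its pooled medians, 1848.5 in low and 1832 in high libraries, did not show this, since the level of Ppp1r1b differed between batches.

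All other genes were then compared between the groups, with rat batch as a covariate. Of 17119 genes, 155 passed an adjusted p of 0.05 (limma, Benjamini-Hochberg), 133 higher in high libraries (0.777% of genes tested) and 22 lower (0.129%). The changes were small: the median absolute log2 difference of these genes was 0.17, and 17 of them reached 0.5, 14 of which were higher. Across all genes tested the median difference was 0.00094, with 8641 genes above 0. The authors' adjustment scaled the libraries to a similar upper quartile, so a shift of the whole table cannot be told apart from none. The genes were identified by Ensembl identifier only, because the data files do not pair identifiers with names. The 4 names used above come from the definition of the groups, and no gene group or cell type could be described by its members.

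The genes described next average at least 3 (log2 values) over all libraries and have the same sign in 4 batches. With the largest rise among them, ENSRNOG00000030807 had between 0 and 61 normalized counts (median 7.5) in low and between 0 and 116 (median 14) in high libraries. Its log2 difference was 1.49 ± 0.40 (SE, 39 high and 40 low libraries; limma adjusted p = 0.0433). The groups overlapped. The gene was listed at 0 in libraries of both groups, but in many more low than high ones. The low group reached 0 in each batch, while the lowest high values were 7 in batch 2 and 5 in batch 6. How far the values of 0 set the difference was not tested. The mean of this gene on the log2 scale was 2.49 in low and 3.97 in high libraries, so it passed the minimum mean only through the high group. In batch 6 the median was 0 in low and 9 in high libraries, and in batch 4 it was 11 and 14. Without batches 2, 3, 4 and 6 in turn, the difference was 1.34, 1.67, 1.77 and 1.23, and the call was lost each time (limma adjusted p = 0.166, 0.164, 0.109 and 0.142). With a pseudocount of 10 the difference was 0.55 (adjusted p = 0.117), and with the score without Drd1 or without Ppp1r1b it was 0.86 (0.230) or 0.68 (0.470). Voom weights gave 1.35 (adjusted p = 0.118), and a column run term gave 1.65 (0.0474).

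ENSRNOG00000017987 had between 0 and 183 normalized counts (median 8.5) in low and between 1 and 318 (median 14) in high libraries. Its log2 difference was 1.18 ± 0.31 (SE; limma adjusted p = 0.0392). Batch 2 held the highest libraries, with medians of 29 in low and 202 in high libraries, and the difference there was 2.47. Batches 3, 4 and 6 had differences of 1.77, 0.57 and 0.14. The sizes thus ranged widely between batches. For this gene the interaction with batch had a limma p of 0.0447 before adjustment. It did not pass the threshold after adjustment over all genes (limma adjusted p = 0.734). Without batch 2 the difference was 0.88 (adjusted p = 0.207), without batch 3 it was 0.95 (0.399) and without batch 4 it was 1.48 (0.0852). Without batch 6 the call was kept (1.44, adjusted p = 0.0201). It was lost with a column run term (0.96, adjusted p = 0.138) and without the 3 low libraries of batch 3 in the third run (0.93, adjusted p = 0.167), and with 20 principal components the difference was 0.23 (0.992). Those components were computed from the same genes and libraries, so they can take up part of the group difference itself. With a pseudocount of 10 the difference was 0.75 (adjusted p = 0.0247) and with voom weights 1.88 (0.00039).

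Among genes lower in high libraries, ENSRNOG00000030462 had between 5 and 35 normalized counts (median 13.5) in low and between 2 and 22 (median 8) in high libraries. Its log2 difference was -0.63 ± 0.14 (SE, with a limma adjusted p = 0.0169). In batch 4 the low median was 18 and the high median 8, whereas in batch 6 the medians were 9.5 and 10.5. Without batch 2, 3 or 4 the difference was -0.62, -0.57 or -0.59 and the call was lost (limma adjusted p = 0.120, 0.178 and 0.165), and without batch 6 it was -0.72 and the call was kept (0.00829). With a column run term it was -0.58 (adjusted p = 0.0534), which ended the call.

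ENSRNOG00000028670 had between 42 and 140 normalized counts (median 77) in low and between 14 and 131 (median 57) in high libraries. Its log2 difference was -0.46 ± 0.12 (SE, with a limma adjusted p = 0.0392). High libraries reached lower values than any low library in each batch, and the ranges otherwise overlapped. By batch, in the order 2, 3, 4 and 6, the difference was -0.83, -0.34, -0.39 and -0.38. On leaving out batches 2, 3, 4 and 6 in turn it was -0.37, -0.51, -0.49 and -0.48, and the call was lost each time (limma adjusted p = 0.166, 0.166, 0.162 and 0.0506). A column run term also ended the call (-0.48, adjusted p = 0.0524).

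**Figure D3:**
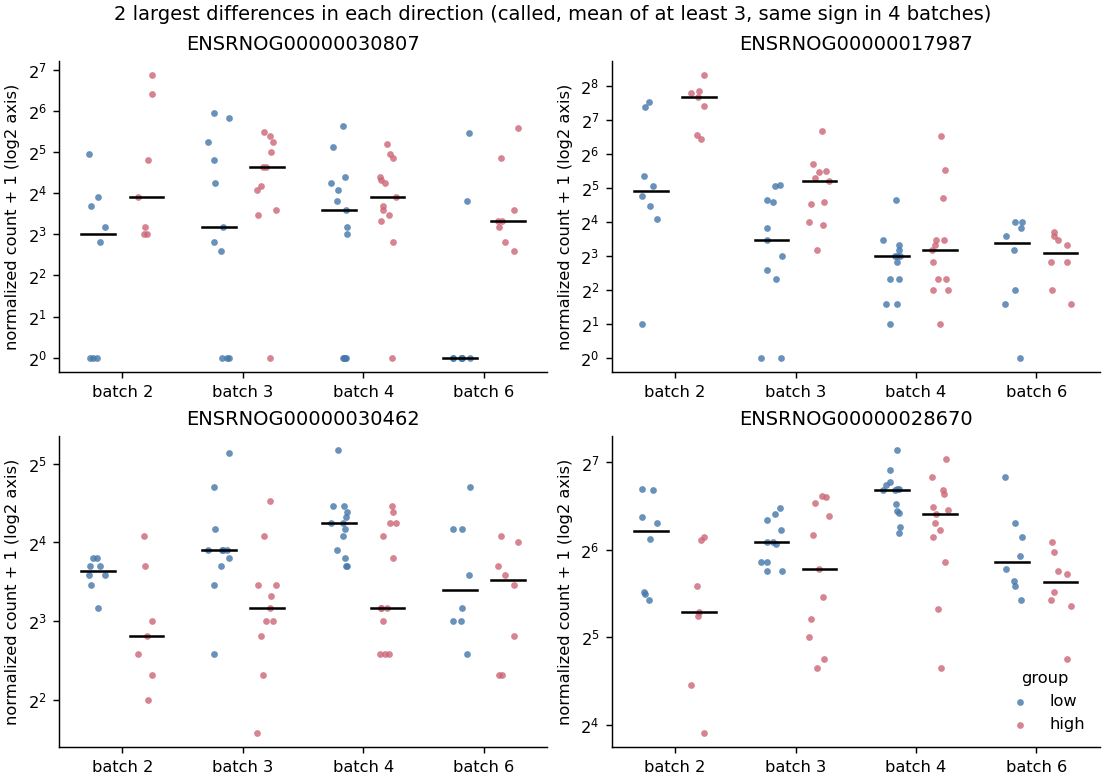
Normalized count + 1 (log2 axis) in low and high libraries of each rat batch, for the 2 genes with the largest rise (top) and the 2 with the largest fall (bottom) among genes past the threshold that average at least 3 (log2 values) and have the same direction in each batch. Points are libraries and bars medians, and the groups overlap in each panel. The gene at the top right has medians of 29 and 202 in batch 2 and 9.5 and 7.5 in batch 6.

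The 155 genes varied in size of difference between batches. Read in the direction of the pooled fit, their median log2 difference was 0.23 for batch 2 and 0.20 for batch 3, against 0.15 for batch 4 and 0.08 for batch 6. Of the 155, 135 had the same sign in the 4 batches. These values describe genes chosen on the same libraries and carry no test. In a test of each gene for a difference between batches, 0 of 17119 genes passed (limma moderated F test, smallest adjusted p = 0.0760, 1145 genes at an unadjusted p under 0.05), and the alternatives gave 0 to 4.

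**Figure D4:**
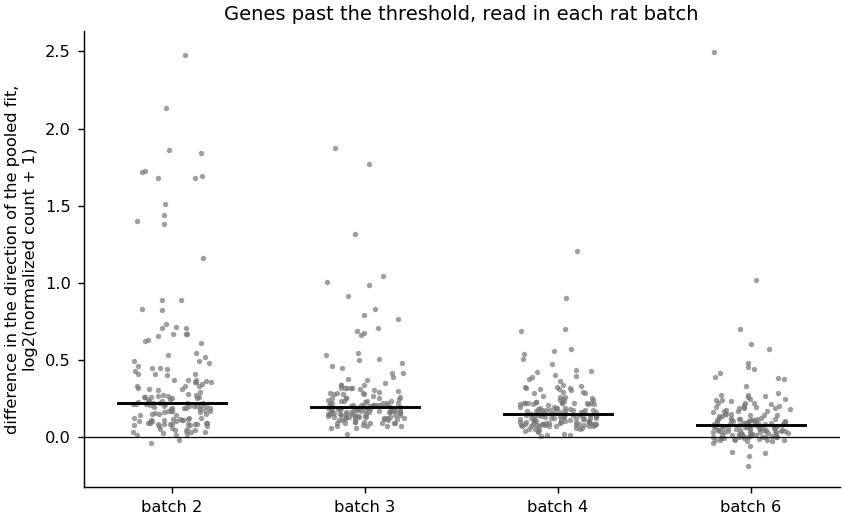
Log2 difference between high and low libraries in each rat batch for the 155 genes past the threshold, with the sign turned so that positive values match the pooled fit. Points are genes and bars are medians, which are 0.23, 0.20, 0.15 and 0.08 in batches 2, 3, 4 and 6.

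Genes called without a batch were also read in the batch that had been left out. Without batch 6, 335 genes passed, and 213 of them (63.6%) had the same sign in batch 6, against 55.9% of all genes tested. Their median difference there, in the called direction, was 0.02, compared with a median absolute difference of 0.17 in the other batches. The value of 0.17 was taken on the libraries that chose the genes, and such a choice raises it. Without batch 4, 26 genes passed and 25 had the same sign in batch 4, against 60.6% of all genes. Their median difference was 0.19 in batch 4, against 0.32 in the batches that chose them. Without batch 2, 2 genes passed and both had the same sign in batch 2, with a median of 0.32 there and 0.23 in the other batches. Without batch 3 the count was 0 (limma, 1549 genes at an unadjusted p under 0.05). The genes called in the other 3 batches thus had a median difference near 0 in batch 6.

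The number of genes depended on which libraries and which score were used. Fits of batches 2, 3, 4 and 6 on their own (limma) called 0, 0, 1 and 0 genes, with 1706, 1832, 1452 and 578 genes at an unadjusted p under 0.05. With the score itself in place of the groups, 773 genes rose (4.52%) and 449 fell (2.62%), and 147 of the 155 were among them. When the libraries were divided on 1 score gene alone, Drd2 gave 758 genes, 507 of them higher (2.96%), and Drd1, Adora2a and Ppp1r1b gave 0 each. Those 3 divisions had 2000, 815 and 1586 genes at an unadjusted p under 0.05. Of the 155 genes, 95 were also called in the division on Drd2.

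**Figure D5:**
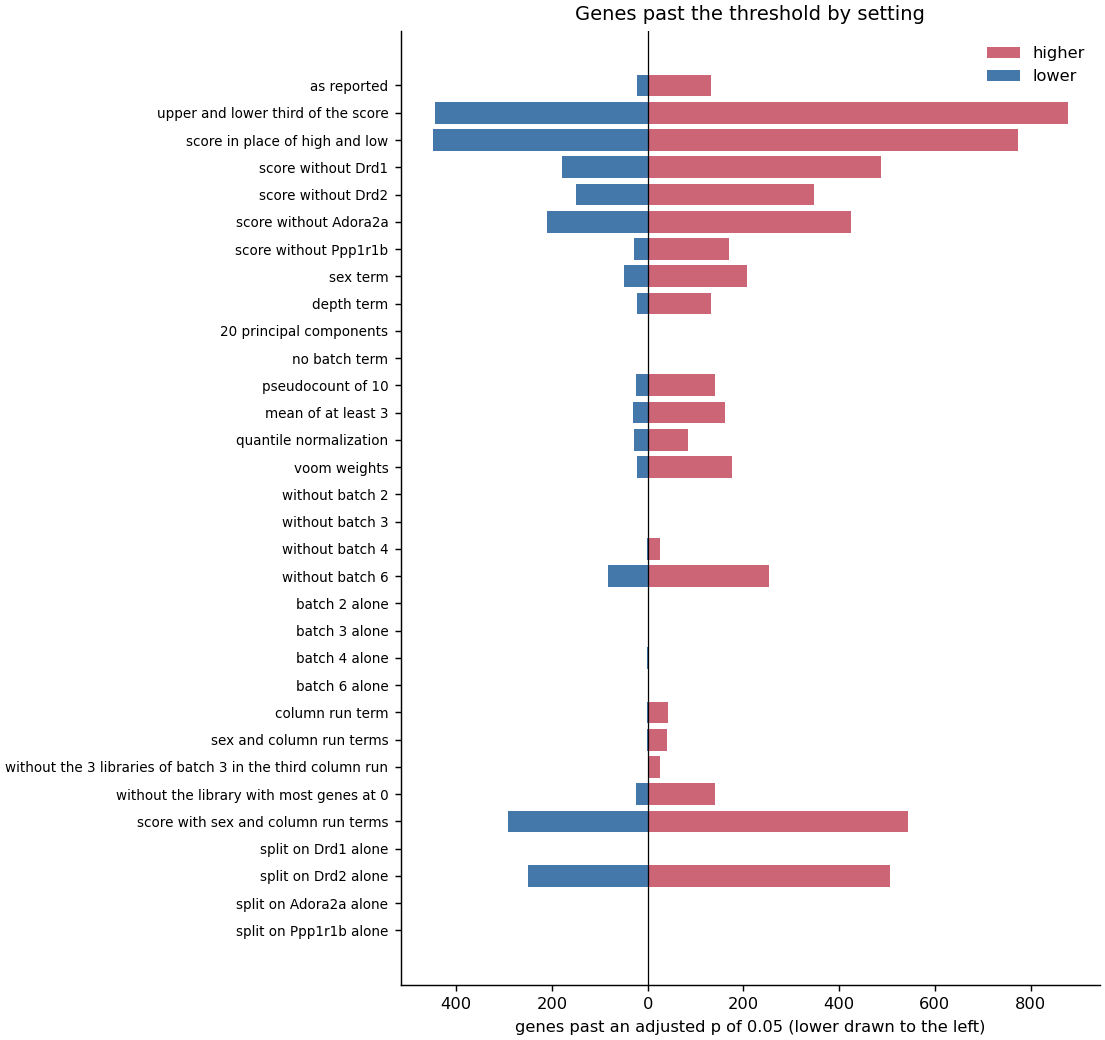
Number of genes past an adjusted p of 0.05 in each setting, with genes higher in high libraries drawn to the right and lower ones to the left. The groups as reported give 133 higher and 22 lower, the division on Drd2 alone gives 507 and 251, and the divisions on the other 3 score genes give 0.

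Library properties that the score did not use were compared between the groups by permutation within batches (2-sided, 100000 resamples). High and low libraries had 18.0 ± 4.05 and 18.0 ± 3.34 M recovered reads (SD, n = 39 and 40; permutation p = 0.998 after adjustment over 4 tests). The number of genes at 0 was 553 ± 254 in high and 534 ± 141 in low libraries (permutation adjusted p = 0.890). The 10 highest genes took 7.12% to 14.5% of the counts in high and 8.27% to 17.5% in low libraries (permutation adjusted p = 0.622). Males made up 59.0% of high and 45% of low libraries (permutation adjusted p = 0.622). In batches 2, 3, 4 and 6, males numbered 5, 6, 8 and 4 in high and 6, 4, 4 and 4 in low libraries. With sex as a covariate 257 genes passed, including all 155.

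The columns of the table form 3 alphabetical runs of names, whose origin was not given in the sources used here. In batch 2 the first run held 7 low and 7 high libraries. The second held 1 low library, which had the lowest score of all (-1.69). In batch 3 the third run held 3 low and 0 high libraries, and the second held 4 low and 8 high. With the run as a covariate 44 genes passed, 43 of them among the 155, and without those 3 low libraries 26 passed, all of them among the 155. The part of the column run in the 155 calls was otherwise not tested.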

How the data were processed

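PolyA RNA of orbitofrontal cortex was sequenced from HS rats. Per the study's methods, the authors trimmed reads with cutadapt, estimated gene counts with RSEM on the rat transcriptome (Rnor_6.0 per the labels), applied an upper quartile adjustment in DESeq2, filtered genes and deposited log2 values after adding 1. The deposited log2 values were used as they stand. The scaling holds the upper quartile of each library near a shared value (884 to 903 normalized counts), so differences are relative to it. All used columns were mapped to a sample, with 0 left over.

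Groups came from the score of 4 genes. The score genes, tests and lists were chosen with earlier results of these data known. Main tests used limma 3.58.1 in R 4.3.3 (lmFit, eBayes with a mean trend) with rat batch as a covariate, on 17119 genes, the 4 score genes left out, with Benjamini-Hochberg adjustment and a threshold of 0.05. The genes printed are the first 2 in each direction by size among those past the threshold, with a mean of at least 3 and the same sign in 4 batches. The rule for named genes went to 10 in each direction and to marker gene lists. No table used as data pairs Ensembl identifiers with names (the RefSeq table for GRCr8 matched 0), so the lists and the oligodendrocyte covariate were not analysed here.

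Reads per library were recovered from the step that 1 read is worth in the rounded values. They ranged from 5.67 to 25.6 M, and 98.1% to 100% of values up to 300 equalled a whole multiple of the step once that multiple was rounded to a whole number, with no further tolerance. At a step of 1 or less each whole number meets this, so the share says little there. In simulated data for high against low with 17119 genes, differences of 0.25, 0.5 and 1 on the log2 scale were recovered for 62%, 89% and 98% of 200 changed genes. Of the genes called there, 0.8%, 5.3% and 6.2% had not been changed. The changed genes were drawn from those averaging at least 3, and the simulated noise was independent between genes. These shares are therefore not the power of the real comparison. Alternatives changed the groups, score, covariates, pseudocount (10), filter, normalization, model (voom weights on recovered reads) and batches. The column run, divisions on 1 score gene, 2 sets of left-out libraries and the reading of calls in a left-out batch were chosen after seeing the data.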

Additional observations from a re-analysis of the deposited data

How the results depend on the processing

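The count of 155 genes changed by over 1.5 times in most settings. It was 1322 with the outer parts of the score, its middle left out, 1222 with the score itself, 667, 498 and 636 with the score without Drd1, Drd2 and Adora2a, and 257 with a sex term. It was 0 with 20 principal components (840 genes at an unadjusted p under 0.05 in limma), 0 with no batch term (1356), 2 without batch 2, 0 without batch 3 (1549), 26 without batch 4 and 335 without batch 6. Within batches 2, 3, 4 and 6 alone it was 0, 0, 1 and 0. In settings chosen after seeing the data it was 44 with a column run term, 42 with sex and column run terms, 26 without the 3 batch 3 libraries in the third run, 835 with the score and both terms, 758 for a division on Drd2 alone and 0 for Drd1, Adora2a or Ppp1r1b alone. Fewer libraries entered the fits within or without batches and that of the outer parts of the score. Their results lay on both sides of 155, and the cause of the changes in the count was not tested. It stayed within 1.5 times without Ppp1r1b (198), with a depth term (154), a pseudocount of 10 (164), a mean of at least 3 (193), quantile normalization (113) and voom weights (199), and on leaving out the 1 library in which the most genes were at 0. The test between batches gave 2 genes with a pseudocount of 10 and 4 with a sex term. Drd1 and Drd2, left out of the score, were past the threshold except with a column run term (differences 0.31 and 0.48, adjusted p = 0.0574 and 0.0672). The 4 genes described by identifier were past the threshold in 7 (ENSRNOG00000030807), 14 (ENSRNOG00000017987), 12 (ENSRNOG00000030462) and 11 (ENSRNOG00000028670) of 31 alternatives. Their direction was kept in 31 of 31. These genes were chosen for the same sign in 4 batches, and the alternatives share libraries. The direction was therefore largely set by that choice and is no separate support. No paired analysis was possible because the labels carry no replicate numbers and high and low libraries come from different rats. The oligodendrocyte term and the counts of striatal list genes were not run, since identifiers could not be matched to names. Reads at these depths limit the genes with few counts most.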
